A study of Mus musculus with 12 samples.

Results

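Interleukin receptor chains are the proteins with which splenic dendritic cells (DCs) receive signals from interleukins, and 10 of their genes were followed across 4 groups of mice. The genes were Il1r1, Il1r2, Il1rap, Il4ra, Il13ra1, Il6ra, Il21r, Il10ra, Il10rb and Il17ra, taken by their symbols. They were read by all probe sets (groups of short probes for 1 transcript) annotated to 1 of these symbols alone, which gave 26 of the 45101 probe sets on the array and 10 of its 18193 named genes. A filter on low values kept 22 of the 26 probe sets and 9 of the 10 genes, against 34205 probe sets and 15019 genes of the whole array.

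The groups were aly mice given LPS (25 micrograms) and an agonistic anti-CD40 antibody of clone FGK4.5 (100 micrograms) into the peritoneum, aly mice left untreated, wild-type (WT) mice given the same LPS and antibody, and WT mice left untreated. Splenic DCs were taken 6 hours after the injection, enriched on beads for CD11c and then flow-sorted. Alymphoplasia (aly) is a mutation of Map3k14, the gene of the kinase NIK. NIK is needed for the processing of NF-kappaB2 in the non-canonical NF-kappaB pathway, and aly homozygotes lack lymph nodes. The mice called WT here were heterozygous littermates, so they carry the aly allele too. Each group had 3 arrays, each array held the DCs of 3 mice pooled, and p-values therefore measure the spread between pools and not between single mice. The labels give no age, sex or strain background. In such pools, fewer cells of a type and less RNA per cell cannot be told apart.

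Most interleukin receptors pair a chain that binds the ligand with a chain that several cytokines share. The IL-1 and IL-17 receptors relay through MyD88 or Act1 to TRAF6 and NF-kappaB, whereas the IL-4, IL-13, IL-6, IL-21 and IL-10 receptors relay through JAK kinases and STAT factors and are held back by SOCS proteins. Activated DCs make several of the ligands themselves and also respond to them, and decoy chains such as IL-1R2 take up ligand without signalling.

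Il4ra and Il21r lie side by side on mouse chromosome 7, and Il1r2 and Il1r1 side by side on chromosome 1. The promoters of Il4ra, Il21r and Il1r2, the 3 genes that rose in treated WT DCs, are shown as RefSeq has them on build GRCm38.p6, as the 250 bases before the start of the gene on the plus strand. Capitals mark the match of a motif. The windows are chr7:125552021-125552270 for Il4ra, chr7:125603179-125603428 for Il21r and chr1:40085843-40086092 for Il1r2.
Il4ra: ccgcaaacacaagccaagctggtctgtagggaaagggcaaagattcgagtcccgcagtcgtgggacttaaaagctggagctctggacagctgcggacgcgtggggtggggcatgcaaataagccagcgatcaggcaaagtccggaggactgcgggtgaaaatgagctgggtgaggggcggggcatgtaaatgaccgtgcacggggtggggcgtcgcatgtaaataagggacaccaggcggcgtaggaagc
Il21r: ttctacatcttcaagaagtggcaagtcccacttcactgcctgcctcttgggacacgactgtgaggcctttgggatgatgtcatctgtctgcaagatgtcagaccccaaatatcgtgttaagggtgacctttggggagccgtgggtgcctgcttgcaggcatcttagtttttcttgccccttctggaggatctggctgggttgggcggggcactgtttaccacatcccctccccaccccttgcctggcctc
Il1r2: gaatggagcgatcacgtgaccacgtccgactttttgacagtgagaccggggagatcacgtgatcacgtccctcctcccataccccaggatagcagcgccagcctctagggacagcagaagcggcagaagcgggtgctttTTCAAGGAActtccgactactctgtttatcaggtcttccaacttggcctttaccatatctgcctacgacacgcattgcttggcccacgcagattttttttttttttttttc
Promoters of 7 of the 10 genes matched the RefSeq table (all but Il10ra, Il10rb and Il17ra). On both strands, 4 motifs were searched: the NF-kappaB consensus, the STAT site TTCNNNGAA, the STAT6 site (TTC and GAA with 4 bases of any kind between) and the interferon response element (GAAA and GAAA with 2 bases of any kind between). They were found in 7.25%, 7.02%, 5.85% and 2.98% of all 32851 promoters, in that order. Among the receptor genes, Il1r2 held 1 match of TTCNNNGAA that begins 111 bases before the start of the gene, and 1 of the 2 promoters of Il1r1 held an NF-kappaB consensus 232 bases before the start. No match of the other motifs lay in these windows.

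The array values are intensities on a linear scale, scaled to the same 2% trimmed mean (150.001) on each of the 12 arrays, and differences below are on the scale of log2(intensity + 16), which understates the changes of dim probe sets. A call means an adjusted p under 0.05 in limma (Benjamini-Hochberg, across the 15019 genes), and errors are standard errors of that fit (n = 3 arrays per group). Map3k14 averaged 296 ± 234 in treated aly, 167 ± 53.2 in untreated aly, 519 ± 50.1 in treated WT and 157 ± 44.6 in untreated WT (SD, n = 3 each), a level that does not check a point mutation. Of 7 markers of DCs as a whole (pan-DC), Itgax (CD11c) and H2-Ab1 were at 229.7 or more and 6912 or more on all 12 arrays. Flt3 was at 267.4 or more and Zbtb46 at 44 or more. The lowest values of Itgax, Flt3 and Zbtb46 were in treated aly. Replicate 1 of treated aly stood apart: its log2 ratio of 3′ over 5′ control signals, which rises with RNA degradation, was 5.66, against 2.17 to 3.11 on the other 5 aly arrays and 1.37 to 1.83 on the 6 WT arrays. Its hybridisation controls were at 24396, against 1933 to 3739 on the other 11 arrays. The 3′ over 5′ ratio was higher on every aly array than on every WT array. In comparisons of aly with WT, the ratio and the genotype therefore cannot be told apart. The spiked poly-A controls set replicate 1 of every group (3.25 to 23.7) apart from replicates 2 and 3 (54.9 to 533), so values within replicate 1 and within replicates 2 and 3 are given below. The labels do not say what sets these arrays apart. Markers of red pulp macrophages summed to 23818 to 60485 in treated aly, 32778 to 50317 in untreated aly, 2475 to 15446 in treated WT and 2018 to 13325 in untreated WT pools, with 10 of 10 measured. The T cell genes Cd3e, Cd3d and Lck were below the filter.

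In WT DCs, LPS with anti-CD40 changed 5 of the 9 measured chains, where 9.71% of all genes were called (4.95% higher and 4.75% lower). Il4ra, Il21r and Il1r2 rose 6.04-fold, 4.47-fold and 3.46-fold, and Il6ra and Il17ra fell 3.85-fold and 3.14-fold. In aly DCs, limma called 0 of the 9 chains, with 1 at an unadjusted p under 0.05 (Il21r), where it called 0.486% of all genes and 12.9% had an unadjusted p under 0.05. The arrays of treated and untreated pools did not overlap for 8 chains in WT (36.4% of all genes) and for 2 in aly (14.6% of all genes). The median log2 change over the 9 chains was 0.33 in aly and 0.64 in WT, against -0.08 and -0.12 over all genes.

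**Figure D1:**
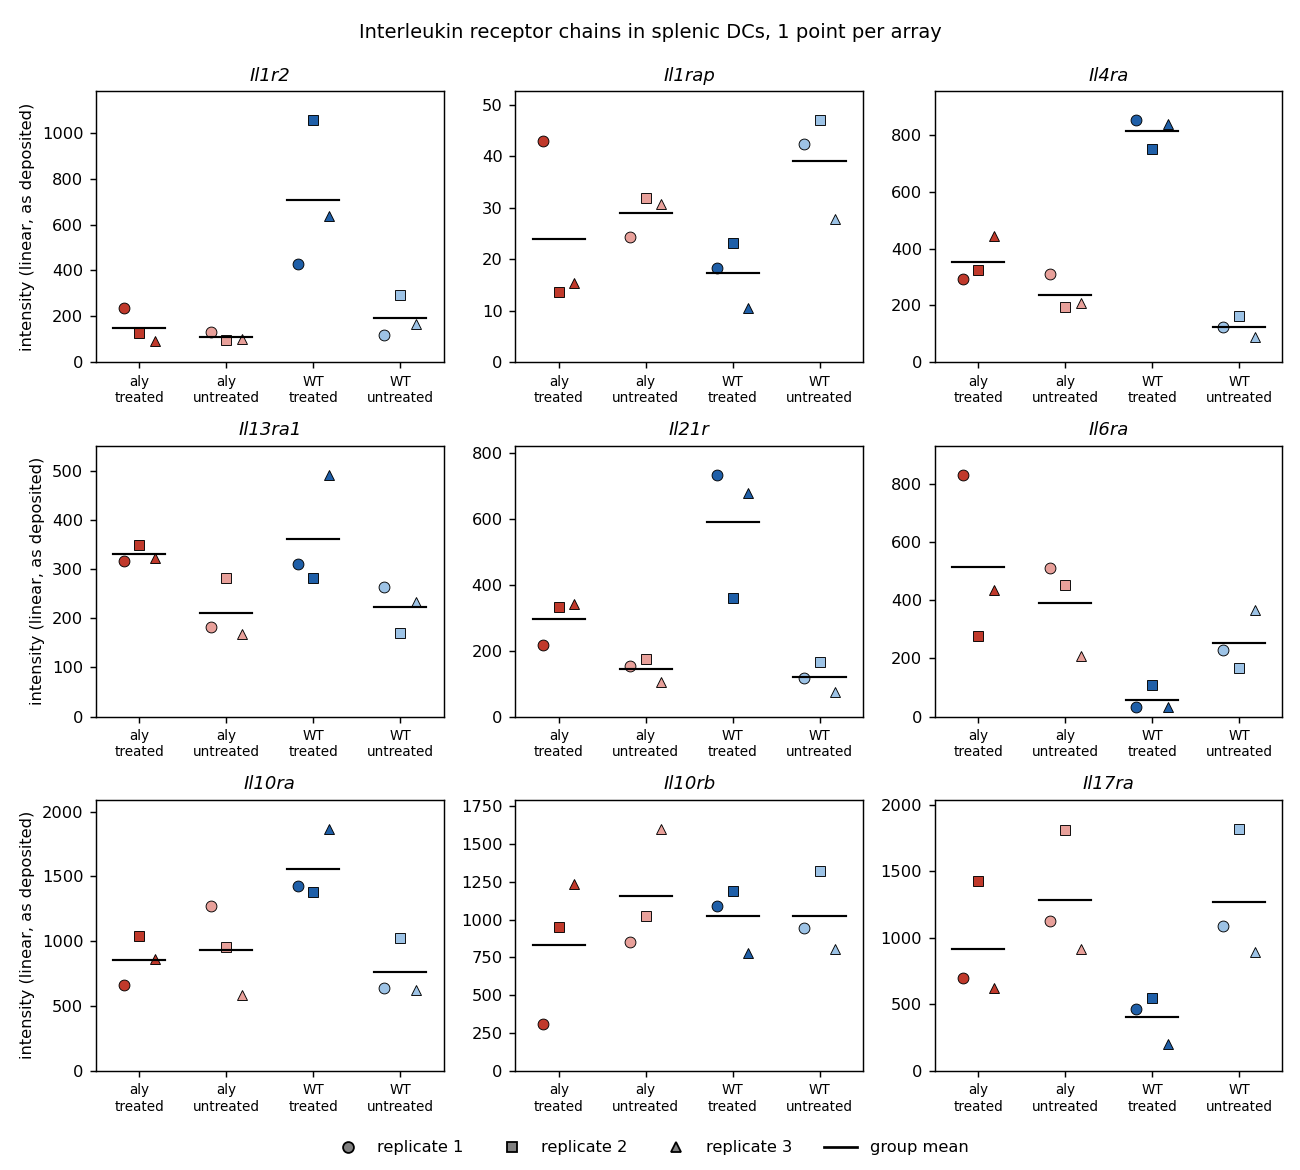
Intensity (linear scale, vertical axis) of the 9 receptor chains that passed the filter, 1 panel per gene, with a point per array and a bar at the mean of the 3 arrays, in treated aly, untreated aly, treated WT and untreated WT pools from left to right. The treated WT points lie above those of all other groups for Il1r2, Il4ra, Il21r and Il10ra, and below them for Il6ra and Il17ra.

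Il1r2, the decoy receptor that binds IL-1 without signalling, had intensities of 234.9, 128.5 and 91.1 in treated aly, 134, 96.8 and 100.5 in untreated aly, 427.8, 1053.5 and 637.2 in treated WT and 116.7, 295 and 165.9 in untreated WT. All 3 treated WT pools lay above the other 9 arrays, and the other 3 groups overlapped with each other. Treatment raised Il1r2 by 1.79 ± 0.44 in WT (95% interval 0.85 to 2.72, adjusted p = 0.017), whereas its log2 change in aly was 0.33 ± 0.44 (-0.61 to 1.26, adjusted p = 0.77), or -0.01 without replicate 1 of treated aly. The WT call did not survive the omission of replicate 2 or 3 of treated WT or replicate 1 or 3 of untreated WT (adjusted p from 0.0034 to 0.097 over the 12 omissions), with a change of 1.74 within replicate 1 and 1.81 within replicates 2 and 3.

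Il1rap, the accessory chain shared by the IL-1, IL-33 and IL-36 receptors, was dim, at 43, 13.7 and 15.4 in treated aly, 24.4, 31.9 and 30.7 in untreated aly, 18.3, 23.1 and 10.6 in treated WT and 42.5, 47 and 27.8 in untreated WT. The treated WT pools were all below the untreated pools of both genotypes, and the other pairs of groups overlapped. The log2 change with treatment was -0.24 ± 0.36 in aly (adjusted p = 0.80) and -0.73 ± 0.36 in WT (-1.50 to 0.04, adjusted p = 0.25). On the other 3 Il1rap probe sets past the filter the change in WT was -0.11 to 0.25, and treated and untreated pools overlapped. Il1r1, the signalling IL-1 receptor, did not pass the filter. Its brighter probe set lay between 5.2 and 13.4 in treated aly, 4.7 and 12.5 in untreated aly, 4.6 and 15.2 in treated WT and 3.2 and 15 in untreated WT, so a change of it was not detectable here.

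Il4ra, the chain that binds IL-4 and serves both types of IL-4 receptor, was the chain with the smallest adjusted p. Its intensities were 291.8, 326.4 and 443.9 in treated aly, 309.4, 194.2 and 206.9 in untreated aly, 851.1, 750.6 and 838.2 in treated WT and 124.7, 161.2 and 87.6 in untreated WT. Treated WT pools were the highest and untreated WT pools the lowest, without overlap with any other group, and both aly groups lay between and overlapped each other. Treatment raised Il4ra by 2.59 ± 0.35 in WT (1.85 to 3.34, adjusted p = 0.00017), and the log2 change in aly was 0.56 ± 0.35 (-0.19 to 1.30, adjusted p = 0.49), or 0.68 without replicate 1 of treated aly. The WT call was kept in all 12 omissions of an array (2.39 to 2.78), with 2.62 within replicate 1 and 2.58 within replicates 2 and 3. A second probe set of Il4ra, 1423996_a_at, was also called in WT (2.97 ± 0.49, adjusted p = 0.00098 over 34205 probe sets, of which 6.54% were called), and another, 1447858_x_at, changed by 1.31 without a call.

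Il21r, the IL-21 receptor chain that pairs with the common gamma chain, followed Il4ra closely. It was at 215.8, 332.8 and 340.6 in treated aly, 154, 174.7 and 106 in untreated aly, 733.7, 359.9 and 677.6 in treated WT and 117, 164.6 and 75 in untreated WT. Each treated group lay above its untreated group and treated WT above treated aly, whereas the untreated groups overlapped. Treatment raised Il21r by 2.16 ± 0.40 in WT (1.32 to 3.00, adjusted p = 0.0024), a call kept in all 12 omissions (1.90 to 2.47). In aly the log2 change was 0.96 ± 0.40 (0.12 to 1.79, unadjusted p = 0.028, adjusted p = 0.35), or 1.16 without replicate 1 of treated aly. Within replicate 1 the change in WT was 2.49 and within replicates 2 and 3 it was 1.99. Over the 12 arrays Il21r and Il4ra had the highest Pearson correlation of any pair of the 9 chains (r = 0.93), over arrays of 4 groups.

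Il13ra1, the chain that joins IL-4Ralpha in the receptor for IL-13, had 316.9, 349 and 323.1 in treated aly, 182.4, 280.8 and 167.5 in untreated aly, 309.9, 281.4 and 491.5 in treated WT and 263.6, 170.7 and 233.7 in untreated WT. On this probe set, the brightest of 5, treated pools were above untreated pools in both genotypes, without a call. The log2 change was 0.64 ± 0.35 in aly (-0.11 to 1.40, adjusted p = 0.44) and 0.64 ± 0.35 in WT (-0.11 to 1.39, adjusted p = 0.31). The probe sets disagreed in aly: 1427165_at changed by -1.13 ± 0.45 (adjusted p = 0.38, treated pools all below untreated pools) and 1454783_at by -0.48 ± 0.56 (adjusted p = 0.75).

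Il6ra, the ligand-binding chain of the IL-6 receptor, moved the other way. It was at 832.1, 275.5 and 435 in treated aly, 512.2, 451.1 and 206.6 in untreated aly, 32.1, 107.8 and 34.5 in treated WT and 228.4, 167.7 and 366.1 in untreated WT. All 3 treated WT pools were below the other 9 arrays, and the other groups overlapped. Treatment lowered Il6ra in WT (log2 change -1.94 ± 0.50, -3.01 to -0.88, adjusted p = 0.022), and the change in aly was 0.34 ± 0.50 (-0.72 to 1.41, adjusted p = 0.79), or -0.07 without replicate 1 of treated aly. The WT call was lost without replicate 1 or 3 of treated WT or replicate 1 or 3 of untreated WT (adjusted p 0.0047 to 0.12), with -2.35 within replicate 1 and -1.74 within replicates 2 and 3. The other probe set of Il6ra, 1422270_a_at, changed by -0.42 ± 0.51 in WT and overlapped.

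Il10ra, the ligand-binding IL-10 receptor chain, had 662.7, 1041.9 and 861.1 in treated aly, 1268.4, 955.6 and 581.6 in untreated aly, 1427.2, 1381.4 and 1866.8 in treated WT and 642.6, 1025.1 and 624.6 in untreated WT. The treated WT pools were the 3 highest arrays and the other groups overlapped, but the change in WT was not called (1.04 ± 0.38, 0.23 to 1.84, adjusted p = 0.10). It was called when replicate 1 of treated aly, which enters only through the spread, was left out (adjusted p = 0.042). The log2 change in aly was -0.08 ± 0.38 (-0.89 to 0.72, adjusted p = 0.94). A second probe set, 1437808_x_at, gave -0.17 in WT.

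Il10rb, the accessory chain that the IL-10, IL-22 and type III interferon receptors share, did not separate any of the groups. Its intensities were 307.4, 952.9 and 1236.7 in treated aly, 851.9, 1020.6 and 1599.4 in untreated aly, 1092.3, 1190.3 and 782.1 in treated WT and 943.2, 1324.3 and 808 in untreated WT. Its log2 change with treatment was -0.63 ± 0.47 in aly (-1.62 to 0.36, -0.04 without replicate 1 of treated aly) and 0.00 ± 0.47 in WT (-0.99 to 0.99), intervals that leave room for changes of up to 0.99 in WT. A second probe set, 1429959_at, changed by 0.22 ± 0.41 in aly and -0.31 ± 0.41 in WT, neither called.

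Il17ra, the common chain of the receptors for IL-17A, IL-17F and IL-25, had 700.6, 1424.1 and 623 in treated aly, 1124.6, 1808.6 and 913.8 in untreated aly, 465.5, 545.6 and 204.8 in treated WT and 1091.2, 1816.8 and 894.9 in untreated WT. Treated WT pools lay below all other arrays, and the other 3 groups overlapped. Treatment lowered Il17ra in WT (-1.65 ± 0.46, -2.63 to -0.67, adjusted p = 0.033), and the log2 change in aly was -0.52 ± 0.46 (-1.49 to 0.46, adjusted p = 0.63). The WT call was lost without replicate 1 or 3 of treated WT or without any one of the 3 untreated WT arrays (adjusted p 0.012 to 0.19), with -1.20 within replicate 1 and -1.88 within replicates 2 and 3. The second probe set, 1420904_at, changed by -1.92 ± 0.74 in aly (adjusted p = 0.36) and -1.80 ± 0.74 in WT (adjusted p = 0.18), neither called. On it the interaction was -0.12 ± 1.04, so it did not show the smaller change in aly of the brighter probe set.

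Markers of DC subsets and other cells moved with treatment in WT in both directions. Those of cDC1, the cross-presenting DC subset, summed to 4033 to 6530 in treated WT and 7682 to 14203 in untreated WT (5 of 6 measured, 3 called lower). Higher without overlap were the sums for cDC2, at 2684 to 3801 in treated WT and 1843 to 2223 in untreated WT (5 of 6 measured, 1 called higher), and for plasmacytoid DCs, at 1796 to 2670.1 in treated WT and 709 to 1001 in untreated WT (5 of 5 measured, 2 called higher and 1 lower). So were those of natural killer cells, at 439 to 1699 in treated WT and 108 to 294 in untreated WT (4 of 5 measured, 1 called higher), and of T cells, at 51.3 to 199 in treated WT and 20.9 to 33.5 in untreated WT (3 of 6 measured, 0 called). Within the plasmacytoid DC list Bst2 rose, at 1002 to 1621.5 in treated WT and 174 to 227 in untreated WT, as did Tcf4. Ccr9 was lower, at 10.9 to 70.3 in treated WT and 111 to 385 in untreated WT, and Siglech and Ly6d overlapped. Within the cDC2 list Irf4 and Esam were higher without overlap, and Sirpa and Cd4 overlapped. Itgam was lower, at 7.7 to 22.8 in treated WT and 33.6 to 58.9 in untreated WT. Monocyte sums overlapped, at 573 to 5020 in treated WT and 4469.5 to 9356 in untreated WT (4 of 5 measured, 1 called lower). Their part in the changes of the 5 chains was not tested.

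**Figure D2:**
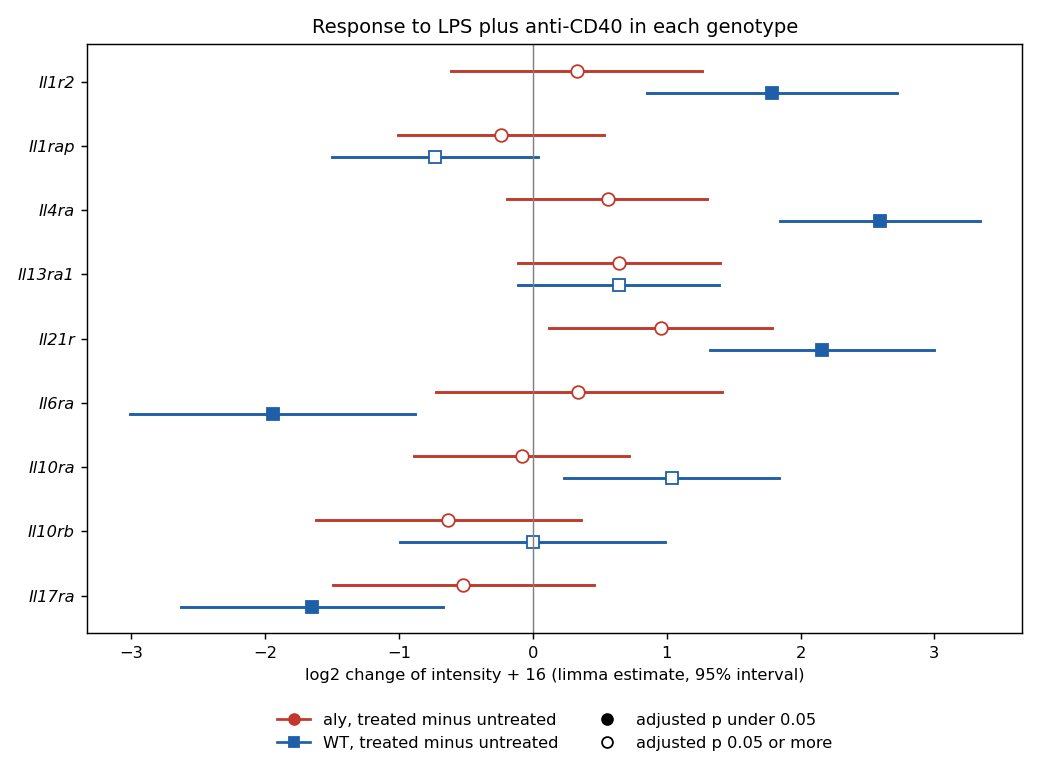
Log2 change with treatment (horizontal axis, treated minus untreated, on the log2(intensity + 16) scale) of the 9 chains in aly (red circles, above) and WT (blue squares, below), with 95% intervals of the limma fit and filled symbols for called changes. In WT 3 chains rose and 2 fell, while 0 of the 9 aly symbols are filled.

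Whether the responses of aly and WT differ was tested as an interaction. In limma 0 of the 9 chains were called, with 4 at an unadjusted p under 0.05, where 0.153% of all genes were called and 8.02% had an unadjusted p under 0.05. The log2 response in aly minus that in WT was -2.04 ± 0.50 for Il4ra (-3.09 to -0.99, adjusted p = 0.19), 2.29 ± 0.71 for Il6ra (0.78 to 3.79, adjusted p = 0.35), -1.46 ± 0.62 for Il1r2 (-2.79 to -0.14, adjusted p = 0.57) and -1.21 ± 0.56 for Il21r (-2.39 to -0.02, adjusted p = 0.62). So a response called in WT and not in aly is not by itself shown to differ between the genotypes. Il13ra1 had an interaction of 0.01 ± 0.50, with an interval from -1.06 to 1.07. The median interaction of the 9 chains was -0.63, against 0.04 for all genes.

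Treated aly and treated WT DCs differed in 2 of the 9 chains, where 5.37% of all genes were called (2.74% higher and 2.64% lower). An unadjusted p under 0.05 was found for 6 of the 9 (22.9% of all genes). Il6ra was 7.18-fold higher in treated aly than in treated WT and Il1r2 was 4.31-fold lower. Another 4 chains did not overlap without being called, which makes 6 chains without overlap (24.2% of all genes). The median log2 difference was -0.48 over the 9 chains, against 0.19 over all genes.

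The log2 difference of Il6ra between treated aly and treated WT was 2.84 ± 0.50 (1.78 to 3.91, adjusted p = 0.0058). It was 4.14 within replicate 1, 2.20 within replicates 2 and 3, and 2.44 without replicate 1 of treated aly. The call was lost only without replicate 3 of treated WT (adjusted p 0.0071 to 0.058 over the 12 omissions) and was at an adjusted p of 0.052 with the 3′ over 5′ ratio as a covariate (2.37). The other probe set, 1422270_a_at, gave 0.66 ± 0.51 without a call. Il1r2 was lower by a log2 difference of -2.11 ± 0.44 (-3.04 to -1.17, adjusted p = 0.014), which was -0.82 within replicate 1, -2.75 within replicates 2 and 3 and -2.44 without replicate 1 of treated aly. That call was lost without replicate 2 or 3 of treated WT (adjusted p 0.0037 to 0.087). Both calls were lost when only the 6 treated arrays were fitted (adjusted p 0.075 for Il6ra and 0.10 for Il1r2).

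The markers of monocytes summed to 9945 to 15159.5 in treated aly and 573 to 5020 in treated WT pools (4 of 5 measured), mostly Csf1r, and did not overlap, as those of red pulp macrophages did not. The pan-DC markers summed to 39407 to 95853 in treated aly and 28865 to 36494 in treated WT (7 of 7 measured, 0 called), mostly H2-Aa, H2-Ab1 and Cd74. Taken singly, each of the 7 overlapped between these groups. Neutrophil markers ranged from 279.4 to 15166 in treated aly and from 76.4 to 1023 in treated WT (6 of 8 measured, Ly6g and Cxcr2 below the filter). Erythroid markers ranged from 484.7 to 2843 in treated aly and from 19 to 336 in treated WT (3 of 6 measured). Of these lists, 1 monocyte, 4 red pulp macrophage, 0 neutrophil and 1 erythroid marker were called higher in treated aly. Natural killer cell markers went the other way, at 171 to 435 in treated aly and 439 to 1699 in treated WT, with 1 of 4 called lower, and 2 of 5 cDC2 and 1 of 5 plasmacytoid DC markers were called lower in treated aly, with overlapping sums. The part of these cells and of the 3′ over 5′ ratio in the differences of Il6ra and Il1r2 was not tested beyond the values given. The ratio was higher on every aly array, so a fit with it as a covariate cannot separate it from genotype.

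Il4ra, Il21r and Il10ra were lower and Il17ra higher in every treated aly pool than in every treated WT pool, without a call. The log2 difference was -1.18 ± 0.35 for Il4ra (-1.93 to -0.44, adjusted p = 0.061), -0.92 ± 0.40 for Il21r (-1.76 to -0.08, adjusted p = 0.18), -0.86 ± 0.38 for Il10ra (-1.67 to -0.06, adjusted p = 0.19) and 1.16 ± 0.46 for Il17ra (0.18 to 2.13, adjusted p = 0.15). Without replicate 3 of treated aly the difference of Il4ra was called (adjusted p = 0.039). The second Il4ra probe set, 1423996_a_at, was called lower over the probe sets (-1.82 ± 0.49, adjusted p = 0.046, where 3.79% of 34205 probe sets were called), a call kept only without replicate 3 of treated aly or replicate 3 of untreated aly (adjusted p 0.0078 to 0.16 over the 12 omissions). With the 3′ over 5′ ratio as a covariate it was -0.67 (adjusted p = 0.56). Another Il4ra probe set, 1447858_x_at, had the opposite sign (0.34 ± 0.50, overlapping). The second probe sets of Il10ra (1437808_x_at, 1.37 ± 0.55) and Il17ra (1420904_at, -0.33 ± 0.74) had the opposite sign to those above. Il10rb differed by -0.48 ± 0.47, or 0.11 without replicate 1 of treated aly, Il1rap by 0.21 ± 0.36 and Il13ra1 by -0.09 ± 0.35 (-0.84 to 0.67). The second Il10rb probe set, 1429959_at, had the opposite sign to the brighter one (0.47 ± 0.41, overlapping).

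**Figure D3:**
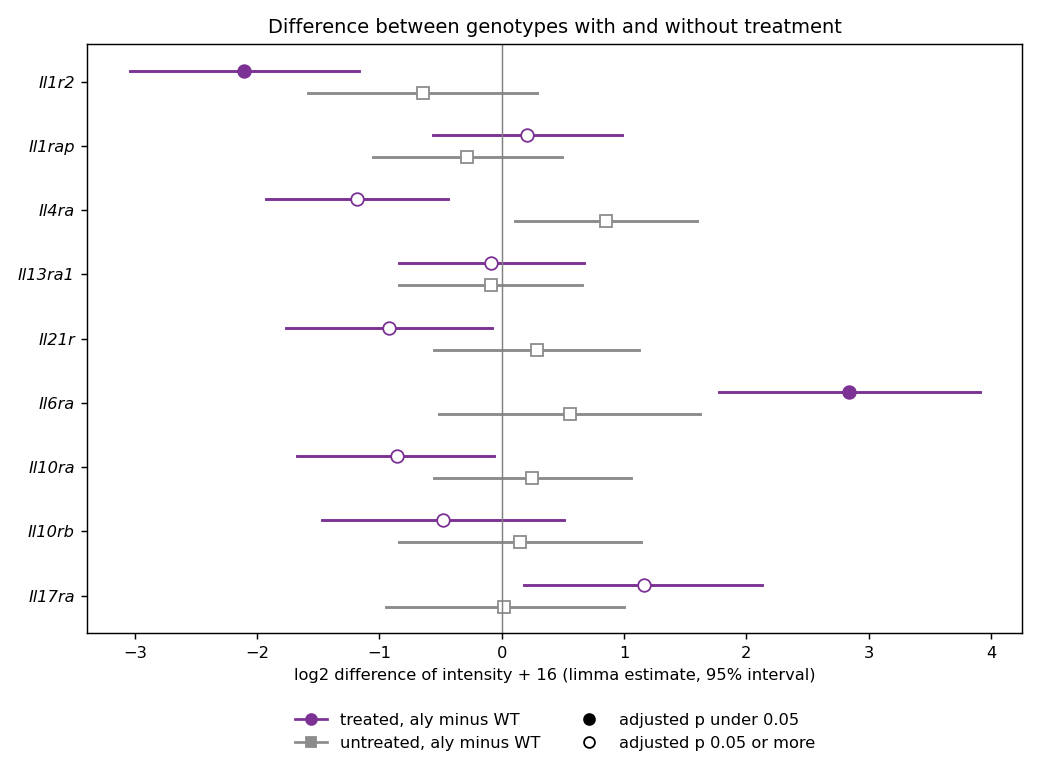
Log2 difference between aly and WT (horizontal axis, aly minus WT, on the log2(intensity + 16) scale) of the 9 chains among treated pools (purple circles, above) and untreated pools (grey squares, below), with 95% intervals of the limma fit and filled symbols for called differences. Il6ra (2.84) and Il1r2 (-2.11) are the filled symbols, both among treated pools.

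Between untreated aly and untreated WT DCs limma called 0 of the 9 chains, with 1 at an unadjusted p under 0.05, where 0.553% of all genes were called and 10.5% had an unadjusted p under 0.05. Il4ra was that chain, at a log2 difference of 0.85 ± 0.35 (0.11 to 1.6, adjusted p = 0.40), and the 3 aly pools lay above the 3 WT pools. It was the 1 chain of the 9 without overlap (22.7% of all genes), with 1.21 within replicate 1 and 0.68 within replicates 2 and 3. The other 8 chains differed by -0.64 to 0.56, with adjusted p from 0.66 to 0.99.

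Il13ra1 was read by 5 probe sets past the filter, and they did not give the same difference between genotypes. Probe set 1427165_at had intensities of 4.1, 18.2 and 20.1 in treated aly, 27.8, 43.6 and 84.2 in untreated aly, 65.2, 130 and 224.7 in treated WT and 89.8, 102.5 and 159.5 in untreated WT. It was lower in aly than in WT with and without treatment, with no overlap. Among treated pools its log2 difference was -2.28 ± 0.45 (-3.24 to -1.33, 4.86-fold lower, adjusted p = 0.012 over the 34205 probe sets), and among untreated pools it was -1.02 ± 0.45 (adjusted p = 0.48).

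The treated call of 1427165_at was lost only without replicate 3 of treated WT (-1.90, adjusted p = 0.11), and was kept without replicate 1 of treated aly (-2.01, adjusted p = 0.014). With the 3′ over 5′ ratio as a covariate the difference was -1.71 (adjusted p = 0.12), in a fit that cannot separate the ratio from genotype. Probe set 1454783_at showed the same order, at -1.75 ± 0.56 among treated pools (adjusted p = 0.088) and -1.33 ± 0.56 among untreated pools (adjusted p = 0.45), without overlap in either. Probe set 1451775_s_at differed by -0.94 ± 0.38 among treated pools (adjusted p = 0.17, no overlap), while 1427164_at, the brightest, and 1425625_at, the dimmest, differed by -0.09 and -0.08. Where on the Il13ra1 transcript each probe set lies was not analysed here.

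**Figure D4:**
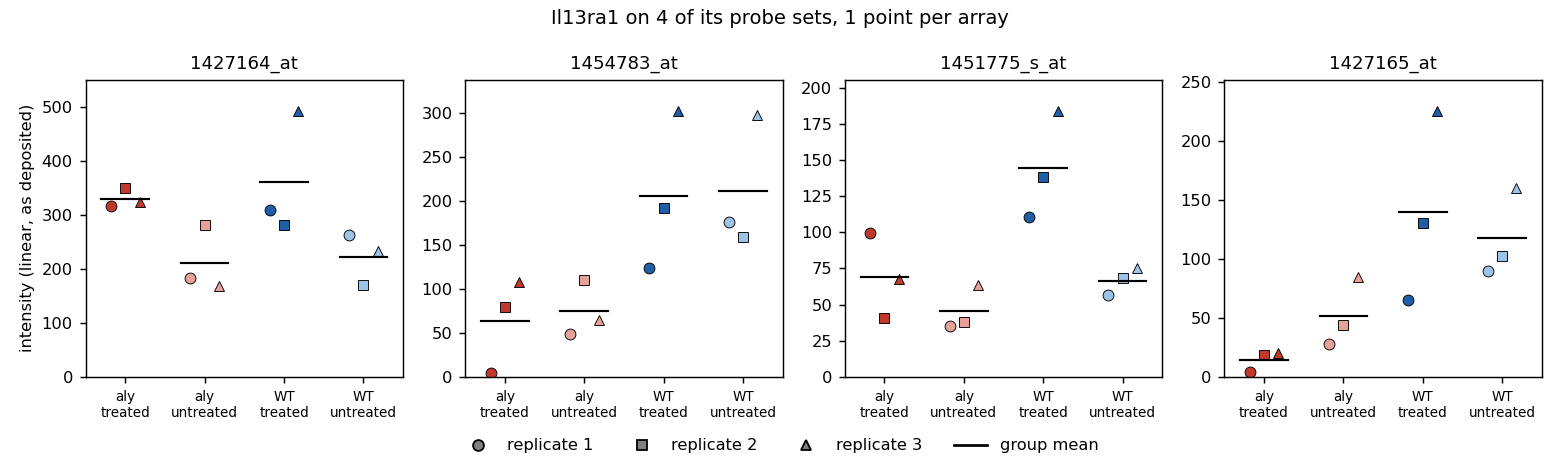
Intensity (linear scale, vertical axis) of 4 probe sets of Il13ra1, 1 panel each, with a point per array and a bar at the mean of 3 arrays, in treated aly, untreated aly, treated WT and untreated WT pools from left to right. For 1427165_at and 1454783_at the aly points lie below the WT points of the same treatment, while for 1427164_at they overlap.

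Of all genes, treatment changed 0.486% in aly and raised 4.95% in WT, and 2.64% were lower in treated aly than in treated WT. The following lists are to be read against these shares and against the all-gene medians of -0.08 in aly, -0.12 in WT and 0.19 between treated aly and treated WT. Among 38 other interleukin receptor chains, 30 were measured. Treatment raised 1 of the 30 in aly and 4 in WT and lowered 0, and 4 were lower in treated aly than in treated WT (0 higher). These 4 were Il2ra and Il7r (the alpha chains of the IL-2 and IL-7 receptors), Il15ra (which presents IL-15) and Il12rb2 (the signalling chain of the IL-12 receptor). Il2ra averaged 178 ± 50.1 in treated aly, 14.6 ± 12 in untreated aly, 1199 ± 261 in treated WT and 3.67 ± 4.36 in untreated WT. It rose 6.61-fold in aly (adjusted p = 0.005) and 61.8-fold in WT (adjusted p = 4.5e-07), folds that depend on the offset since the untreated levels are under it. The same holds below for Il12rb2, Il6 and Socs1. Outside treated WT, Il12rb2 reached at most 21.9 and Socs1 at most 25.4, so the filter may have kept both through treated WT alone.

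Il15ra averaged 81.8 ± 77.8 in treated aly, 35.7 ± 9.12 in untreated aly, 1116 ± 139 in treated WT and 33.4 ± 9.62 in untreated WT, and rose 23.1-fold in WT. The responses of Il2ra and Il15ra were the 2 of this list whose interaction was called, at -3.23 ± 0.56 (adjusted p = 0.036) for Il2ra and -4.01 ± 0.75 (adjusted p = 0.046) for Il15ra. The interaction of Il2ra was kept only without replicate 1 of treated aly or replicate 2 of untreated aly, and that of Il15ra only without replicate 1 or 3 of treated aly. Il7r rose 10.2-fold in WT (adjusted p = 0.00018) and was lower in treated aly by a log2 difference of -2.08 ± 0.46 (adjusted p = 0.017), a call lost without replicate 3 of treated WT. Il12rb2 rose 3.11-fold in WT (adjusted p = 0.021) and was lower in treated aly (-1.64 ± 0.42, adjusted p = 0.032). The rise was lost without replicate 2 or 3 of treated WT or replicate 1 or 3 of untreated WT, and the difference without replicate 2 of treated aly, replicate 2 or 3 of treated WT or replicate 3 of untreated WT.

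Of 16 ligands and antagonists of the 10 receptors, 11 were measured. Treatment raised 1 in aly and 2 in WT, and 2 were lower in treated aly than in treated WT. Il1rn, the secreted antagonist of the IL-1 receptor, averaged 573 ± 185 in treated aly, 50.0 ± 19.0 in untreated aly, 4975 ± 2610 in treated WT and 51.7 ± 11.3 in untreated WT. It rose 8.84-fold in aly (adjusted p = 0.0025) and 68.3-fold in WT (adjusted p = 4.5e-07), and was lower in treated aly (-3.01 ± 0.42, adjusted p = 0.0015). Il6, the ligand of Il6ra, averaged 45.7 ± 31.8 in treated aly, 6.70 ± 2.34 in untreated aly, 352 ± 76.3 in treated WT and 15.8 ± 7.25 in untreated WT. It rose 11.7-fold in WT (adjusted p = 2.6e-05) and was lower in treated aly (-2.67 ± 0.39, adjusted p = 0.0021), opposite in sign to Il6ra in both comparisons.

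Of 17 genes of the JAK, STAT and SOCS relay, 16 were measured, and treatment raised 2 in aly and 11 in WT and lowered 0. Their median log2 change was 0.33 in aly and 1.78 in WT. The feedback inhibitor Socs3 rose 10.8-fold in aly (adjusted p = 0.0025) and 19.7-fold in WT (adjusted p = 2.2e-05), and Socs2 rose 5.88-fold in aly (adjusted p = 0.034) and 21.9-fold in WT. The aly call of Socs2 was lost without any of the 3 untreated aly arrays, replicate 2 or 3 of treated WT or replicate 1 or 3 of untreated WT. Socs1, which averaged 104 ± 31.3 in treated WT and 1.53 ± 0.757 in untreated WT, rose 6.70-fold (a log2 change of 1.34 to 5.37 over 15 other settings) and the transcription factor Stat5a 10-fold in WT (adjusted p = 0.00013 each).

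In the same relay 5 genes were lower in treated aly than in treated WT, at a median log2 difference of -1.18 over the 16. The 4 with the smallest adjusted p were Socs1 (-2.10 ± 0.36, adjusted p = 0.0053), Stat5a (-2.07 ± 0.44, adjusted p = 0.015) and the kinases Tyk2 (-1.79 ± 0.39, adjusted p = 0.016) and Jak1 (-2.25 ± 0.51, adjusted p = 0.019). The call of Socs1 was kept in all 12 omissions. The filter, which may have kept Socs1 through treated WT alone, was not repeated in them. The calls of Stat5a, Tyk2 and Jak1 were lost without replicate 2 of treated aly or replicate 3 of treated WT.

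Of 17 genes of IL-1 and IL-17 receptor signalling, 16 were measured. Treatment raised 0 in aly and 3 in WT, and 0 differed between treated aly and treated WT, with a median log2 difference of -0.75. Traf6, the ubiquitin ligase of both pathways, rose 3.01-fold in WT (adjusted p = 0.008, lost without replicate 3 of untreated WT). The ribonuclease gene Zc3h12a rose 4.01-fold (adjusted p = 0.040) and the adaptor gene Myd88 2.45-fold (adjusted p = 0.043) in WT. The call of Zc3h12a was kept only without 1 of the 3 treated aly arrays or replicate 2 of untreated WT, and that of Myd88 only without 1 of the 3 treated aly arrays or replicate 1 or 3 of untreated aly. Adam10 and Adam17, the proteases that shed receptor chains such as IL-6Ralpha from the cell surface, were both measured and called in 0 of the 5 comparisons.

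For each chain the gene with the most alike pattern over the 12 arrays was found by Pearson correlation of log2 values. It was Hook2 for Il4ra (r = 0.96), Nuak2 for Il21r (r = 0.97), Stat4 for Il1r2 (r = 0.92), Ndufb11 for Il6ra (r = 0.96), Phactr2 for Il17ra (r = 0.96), Zyx for Il10ra (r = 0.95), Ceacam15 for Il13ra1 (r = 0.94) and Xpa for Il1rap (r = 0.92). Without replicate 1 of treated aly these values were 0.91 to 0.98. Pik3r4 was the gene most like Il10rb (r = 0.96), which was 0.83 without that array. All these correlations share the same arrays and groups, and each partner is the highest of all genes past the filter.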

How the data were processed

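Gene expression was measured on Affymetrix mouse arrays in 12 pools of sorted splenic DCs, 3 per group. The deposited values are intensities on a linear scale, 1 per probe set and array; their common 2% trimmed mean (150.001) shows a scaling of each array, and which software and background correction made them is not given in the sources used here. RNA was amplified in 2 rounds before labelling, per the labels' protocols. The number of arrays limits the precision. Probe sets with 1 symbol (34958) were named from the platform annotation, 932 had several symbols and 9211 none, 64 were controls, and 34754 matched RefSeq's gene table by Entrez identifier (0 symbols changed). All columns matched a sample.

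The filter kept probe sets that exceeded the 40th percentile of an array on 3 or more arrays, and each gene was taken by its probe set of highest mean. Values as deposited were used as log2(intensity + 16), with 1 mean per group over all 12 arrays in R 4.3.3 with limma 3.58.1 and data.table (version 1.17.8; 8 residual and 8.04 prior degrees of freedom). The 5 contrasts were treatment in aly, treatment in WT, genotype among untreated and treated pools, and their interaction, each with Benjamini-Hochberg adjustment over 15019 genes. The median standard error was 0.43, and 0.61 for the interaction. All-gene medians of the log2 differences were -0.08, -0.12, 0.10, 0.19 and 0.04. Separate fits covered all 34205 filtered probe sets. On simulated data for treatment in WT (15019 genes, 200 changed), 57% of changes of 2 on the log2 scale and 95.5% of changes of 3 were recovered, with 3.39% and 2.55% false calls. The simulated noise was normal and independent between genes, without shifts of whole arrays, so these rates need not hold for the real arrays. Motifs were searched with Python 3.11.15 and pandas 2.3.3, and figures drawn with matplotlib 3.10.9.

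The 10 genes, gene lists, marker lists, tests and alternatives were chosen with earlier results of these data known. Named are all 10 genes, Map3k14, up to 4 called genes per list and comparison with the smallest adjusted p, and the gene most alike to each chain. Alternatives covered the offset, normalization, filter, choice of probe set, arrays fitted, array weights, blocks, the 3′ over 5′ ratio and leaving out each array.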

Additional observations from a re-analysis of the deposited data

Results flagged for a closer look

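The responses of Il2ra and Il15ra to treatment differed between aly and WT by the test of the interaction in limma. The log2 response in aly minus that in WT was -3.23 for Il2ra (adjusted p = 0.036, 0.0063 to 0.20 over the 12 omissions of an array). For Il15ra it was -4.01 (adjusted p = 0.046, 0.0062 to 0.22 over the omissions). Both genes are receptor chains outside the 10 followed here, and each group had 3 arrays, too few for a test of single arrays.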

How the results depend on the processing

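The numbers of the 9 chains called, 0 for treatment in aly, 5 for treatment in WT, 0 and 2 for genotype among untreated and treated pools and 0 for the interaction, depended on several choices. With an offset of 1 they were 2 for treatment in WT and 1 for genotype among treated pools, with the mean of a gene's probe sets 3 for treatment in WT, and in replicates 2 and 3 only 3 for treatment in WT. Fitting only the groups compared gave 0 for genotype among treated pools, the 3′ over 5′ ratio as a covariate gave 1, and array weights gave 4. The interaction was called for 1 chain, Il4ra, with an offset of 64 and with array weights. Leaving out 1 array at a time gave 2 to 6 for treatment in WT and 0 to 3 for genotype among treated pools. The cause of these shifts was not tested. With the replicate number as a block (replicate block) the counts were 5 for treatment in WT, 2 for genotype among treated pools and 0 for the others, with 1666 and 1108 genes of the array called in place of 1458 and 807. The labels share only a number: same-numbered arrays correlated in their deviations at -0.03 to 0.30 (median 0.09, 18 pairs) and others at -0.29 to 0.23 (median -0.07, 36 pairs). Over the array, leaving out 1 array gave 13 to 102 genes for treatment in aly (73 with all arrays), 587 (without replicate 3 of treated WT) to 2843 (without replicate 1 of treated aly) for treatment in WT, 81 (without replicate 3 of treated WT) to 1544 for genotype among treated pools, and 0 to 396 for genotype among untreated pools (83 with all arrays). That last count was 0 without replicate 1 or 3 of untreated aly or replicate 3 of untreated WT, and 0 with median centring or an offset of 1. Of the results of single chains 1102 kept direction and side of the threshold, 28 lost a call, 13 gained one and 63 changed sign, all 63 without a call before or after. The sign changes, with Map3k14, were as follows. Treatment in aly gave -0.16 for Il1r2 and -0.08 for Il6ra with the spike-in split as a block and replicate 1 of treated aly left out (-0.01 to 0.60 and -0.07 to 0.70 over the omissions), -0.39 for Il6ra with array weights, and, with the mean of a gene's probe sets, 0.07 for Il1rap and -0.11 for Il13ra1. For Il10ra it gave 0.37 (mean of probe sets), 0.02 (array weights), 0.34 (replicates 2 and 3), 0.10 (ratio as covariate) and 0.12 (spike-in split without replicate 1 of treated aly), and -0.38 to 0.17 over the omissions, and for Map3k14 -0.11 to 1.15. Treatment in WT gave for Il10rb -0.15 (mean of probe sets), 0.00 (quantile normalization), -0.10 (replicates 2 and 3) and -0.01 (covariate), and -0.15 to 0.20 over the omissions. Genotype among untreated pools gave 0.04 for Il1rap and -0.09 for Il17ra (mean of probe sets), -0.20 for Il17ra, -0.07 for Il10rb and -0.15 for Map3k14 (median centring), 0.00 for Il13ra1 (array weights), and 0.11 for Il13ra1, -0.10 for Il10ra and -0.32 for Map3k14 (replicates 2 and 3). Over the omissions it was -0.30 to 0.04 for Il13ra1, -0.10 to 0.35 for Il10rb, -0.25 to 0.31 for Il17ra and -0.14 to 0.27 for Map3k14. Genotype among treated pools gave for Il1rap -0.13 (median centring), -0.12 (quantile normalization), -0.07 (array weights), -0.08 (replicates 2 and 3), -0.40 (covariate) and -0.11 (spike-in split), for Il13ra1 0.00 (quantile normalization), for Il10ra 0.25 (mean of probe sets), for Il10rb 0.17 (replicates 2 and 3), 0.59 (covariate) and 0.05 (spike-in split), and for Map3k14 0.36 (covariate). Over the omissions it was -0.11 to 0.39 for Il1rap, -0.24 to 0.15 for Il13ra1 and -0.87 to 0.11 for Il10rb. The interaction of Il13ra1 was -0.01 (offset of 64), -0.10 (median centring), -0.50 (mean of probe sets), -0.07 (array weights) and -0.26 (replicates 2 and 3), and -0.15 to 0.24 over the omissions. The interaction could not be refitted with only the groups compared, since it needs all 4. Of the alternatives chosen after seeing the data, the spike-in split as a block without replicate 1 of treated aly and a variance prior that follows the mean level left the counts of chains within 1.5 times, and replicate 1 alone gave values without a test. Dim probe sets such as those of Il1r1 limit what can be seen.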
